A study of Mus musculus with 28 samples.

Results

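The expression of 40 genes of mitosis and the spindle checkpoint was followed across tumours and normal brain of mice. The members were fixed by name, and each was read through the probe set (the group of short probes for a transcript) annotated to it alone, or the brightest of several. A probe set was found for 39 of the 40 genes, among 18193 genes with one in the whole series. Ccnb1, which encodes cyclin B1, was not analysed here, and the gene listed as Sgol1 carries the current symbol Sgo1. Kif15 lay between 1.7 and 15.4 on every array and did not pass the filter on dim genes, so 38 members were tested. Of these, 38 of 38 were called higher in medulloblastoma than in normal brain and 35 of 38 in glioma than in normal brain, where 32.2% and 28.4% of all 13927 tested genes were called higher.

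The study measured 28 Affymetrix Mouse 430 2.0 arrays: 10 medulloblastomas, tumours of the cerebellum, 6 gliomas, tumours with features of glia, and 12 normal brains. All mice but 1 carried hGFAP-Cre, a recombinase transgene driven by a promoter active in neural progenitors and astrocytes, and were p53-/-. The medulloblastomas were 3 with p53 loss alone (codes A3, A5 and A6), 2 that were also Rictor+/- (B4 and B6) and 5 that were also Rictor-/- (C1, C2, C4, C5 and C6). Among the gliomas, A4 had p53 loss alone, B1, B2, B3 and B7 were Rictor+/- and C3 was Rictor-/-. The normal brains were 5 Rictor+/- (B1, B2, B4, B6 and B7), 5 Rictor-/- (C1, C2, C3, C5 and C6), 1 with p53 loss alone (A6) and 1 from normal mice with wild-type p53 (Z2). Rictor encodes a subunit of the kinase complex mTORC2, and the series asks what that complex does in the 2 tumour types. The labels put the tumour cell content at no less than 70%, and give no age. Whether arrays of 1 group stand for different animals is not stated, and p-values here reflect how these samples vary among themselves, some of which may be technical.

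Mitosis starts when cyclin-dependent kinase 1, bound to A and B cyclins, drives chromosome condensation and spindle assembly, helped by the Aurora and Polo-like kinases. The spindle checkpoint proteins hold the anaphase-promoting complex (APC/C) inactive until every kinetochore is attached to microtubules. The complex then marks securin and the cyclins for destruction, separase opens the cohesin rings, and the chromosomal passenger complex and centralspindlin direct cytokinesis. The genes of this machinery are transcribed late in the cell cycle, and in brain they mark progenitors and tumour cells that divide, while neurons have left the cycle.

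Many promoters of such genes hold a cell cycle homology element, TTTGAA, a site of the DREAM and MuvB complexes, and CCAAT boxes bound by NF-Y. Promoters were taken from RefSeq (assembly GRCm38.p6, 250 bases before to 50 after the start), and 34 of the 40 members matched, with 37 promoters. Both motifs were searched as these letters on both strands, and matches of 1 motif that overlap a match of the other were kept. TTTGAA was found in 27 of the 37 promoters (73.0%), against 12% of the 14361 promoters of the tested genes and 17.9% of all 32851 promoters. CCAAT was found in 28 (75.7%), against 37.3% and 37.4%. Both stood in 23 (62.2%), against 4.62% and 6.95%, and neither in 5 (13.5%), against 55.3% and 51.7%. A match is a description of these letters, not a site shown to be bound. The 120 bases before the start are shown for 6 members in which both motifs lie close to the start, and for Mad2l1 and Pttg1, in which neither lies in that stretch. Sequences run 5′ to 3′ on the gene's strand, and the capitals mark the element TTTGAA and the CCAAT box, or the reverse complement of either.
Cdk1, chr10:69352913-69353032, minus strand: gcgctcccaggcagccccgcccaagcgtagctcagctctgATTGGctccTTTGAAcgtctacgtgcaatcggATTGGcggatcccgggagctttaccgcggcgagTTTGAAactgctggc
Top2a, chr11:99024190-99024309, minus strand: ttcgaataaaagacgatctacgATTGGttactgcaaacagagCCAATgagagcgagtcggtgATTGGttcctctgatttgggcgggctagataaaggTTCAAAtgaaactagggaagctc
Cdc20, chr4:118437344-118437463, minus strand: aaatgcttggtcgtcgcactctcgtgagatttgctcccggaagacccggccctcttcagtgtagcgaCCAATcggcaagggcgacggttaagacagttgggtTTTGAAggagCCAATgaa
Ube2c, chr2:164769809-164769928, plus strand: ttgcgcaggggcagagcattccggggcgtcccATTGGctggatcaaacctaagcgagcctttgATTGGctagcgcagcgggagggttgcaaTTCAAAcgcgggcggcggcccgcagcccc
Kif11, chr19:37376262-37376381, plus strand: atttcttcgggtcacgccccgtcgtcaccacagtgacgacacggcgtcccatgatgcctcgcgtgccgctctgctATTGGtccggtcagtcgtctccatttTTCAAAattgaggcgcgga
Espl1, chr15:102296173-102296292, plus strand: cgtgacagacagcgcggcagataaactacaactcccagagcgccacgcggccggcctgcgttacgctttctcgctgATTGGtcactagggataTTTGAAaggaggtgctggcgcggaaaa
Mad2l1, chr6:66535101-66535220, plus strand: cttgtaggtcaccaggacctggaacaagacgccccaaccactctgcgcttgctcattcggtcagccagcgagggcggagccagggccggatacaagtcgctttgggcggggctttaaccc
Pttg1, chr11:43425982-43426101, minus strand: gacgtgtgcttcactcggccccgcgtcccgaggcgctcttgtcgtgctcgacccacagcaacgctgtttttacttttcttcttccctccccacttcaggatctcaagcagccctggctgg
In Cdc20 the TTTGAA element begins 18 bases before the start (position -18) with CCAAT at -53 and -8. In Kif11 the element, inverted, is at -19 with an inverted CCAAT box at -45, and in Espl1 the element is at -27 and an inverted CCAAT box at -44. In Ube2c the inverted element is at -29 with inverted CCAAT boxes at -57 and -88. Within the printed stretch Top2a has the inverted element at -23 and CCAAT boxes, in either orientation, at -58, -78 and -98. Cdk1 holds 2 elements, at -15 and -71, with inverted CCAAT boxes at -48 and -80. In 10 members at least 1 of each motif fell within the 120 bases.

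Values are intensities on a linear scale, and a difference is the difference of log2(intensity + 6.3), which understates the change of a dim gene. A gene was called where limma's moderated test, two-sided, gave an adjusted p (Benjamini-Hochberg over the 13927 tested genes) under 0.05. The tissue comparisons came from all 28 arrays with tissue and genotype as terms. Array medians over all probe sets ran from 18.8 to 27.8. Actin 3′ to 5′ ratios, which rise with RNA degradation, overlapped between tissues but had their highest median in normal brain: they were 1.49 to 4.38 (median 2.58) in medulloblastoma, 1.73 to 2.78 (median 2.21) in glioma and 1.99 to 6.21 (median 3.47) in normal brain. The same ratios of Gapdh had their lowest median in normal brain. They were 0.874 to 1.63 (median 1.25) in medulloblastoma, 1.04 to 1.74 (median 1.44) in glioma and 0.972 to 2.58 (median 1.115) in normal brain. The 2 controls thus ordered the tissues differently, and their part in the tissue differences was not tested. Rictor itself read 222.7 to 276.8 on the p53-only and heterozygous medulloblastomas and 68.8 to 235.8 on those labelled Rictor-null. In normal brain it read 250.5 to 388.6 on heterozygous and 213.3 to 443.9 on Rictor-null arrays, which did not separate. The wild-type normal brain read 580, and the Rictor-null glioma 144.4 against 192.5 to 315.5 in the heterozygous ones. Rictor was not called in any of the 5 genotype comparisons, and the sources used here do not place its probes relative to the deleted stretch, so it does not check the labels. The normal brains B2, C5 and Z2 carried transcripts of cerebellar granule neurons, such as Gabra6, which reached 1740, 4153 and 4918 there. No other normal brain exceeded 116.3 for Gabra6.

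A few arrays stood apart in the mitosis genes themselves. The median intensity over the 38 tested members was 287.5 to 558.1 on the medulloblastomas, 193.5 to 360 on gliomas B1, B2, B3, B7 and C3, and 67.7 on glioma A4. Glioma A4 was the lowest of the 6 gliomas for 38 of 38 members, while it was the lowest for 18.6% of all tested genes. In normal brain the median was 9.7 to 31.95 on 11 arrays and 65.9 on C2. Normal brain C2 was the highest of the 12 for 32 of 38 members, against 10.1% of all tested genes. Medulloblastoma A3 was the lowest of the 10 for 24 members, against 10.6%. A4 is the sole glioma with p53 loss alone, so its level and that genotype cannot be told apart. Its summed intensity of 8 oligodendrocyte precursor markers was 16724, the highest of the gliomas (10126 to 16632 in the others), and that of 12 mature neuron markers was 1094.5, against 607.7 to 5108 in the others. In normal brain C2, Atoh1 and Mycn, which mark cerebellar granule precursors, read 176.2 and 379.5, against at most 21.1 and 118.4 in the other 11. Gli1, Gli2, Sfrp1 and Nhlh1 were also highest in C2, at 53.2, 168.7, 192.8 and 55.4, against at most 47.7, 73.7, 64.9 and 15.5. In Zic1, Neurod1, Barhl1, Nhlh2 and Pax6 another normal brain was higher. The sum of 11 such markers was 3497 in C2, inside the range of 908.1 to 9086 of the normal brains. Zic1 and Neurod1 weighed most in the high sums, at 4594.5 and 3232.4 in C5 and 4461.6 and 3830.9 in Z2. The part of these markers in the mitosis values was not tested. Normal brain C2 shares its title prefix and code with Rictor-null medulloblastoma C2, and the labels do not say whether both came from the same animal. That pair had a residual correlation of 0.251, the highest of 8 such pairs (-0.102 to 0.211 in the others). What this means for the mitosis values of normal brain C2 was not tested. Results that rest on A4 or C2 are given with and without them.

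**Figure D1:**
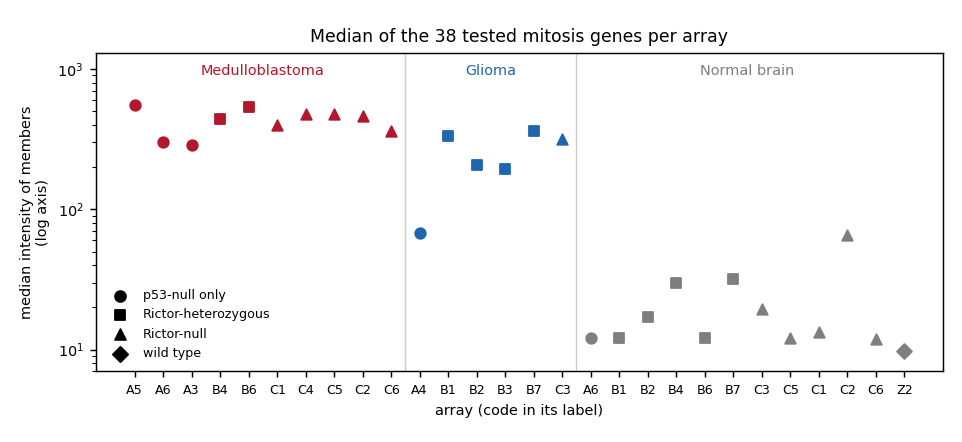
Median intensity of the 38 tested mitosis genes on each of the 28 arrays (vertical log axis), coloured by tissue, with the marker shape giving the genotype. The medulloblastomas lie between 287.5 and 558.1, glioma A4 at 67.7 is below the other 5 gliomas, and normal brain C2 at 65.9 is above the other 11 normal brains.

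Between medulloblastoma and normal brain, all 38 tested members rose in medulloblastoma. The median log2 difference was 4.01 over the members and 0.0068 over all tested genes, and the members ran from 0.77 for Anln to 5.63 for Mki67. In 34 of the 38 every medulloblastoma array read above every normal brain array, a pattern that 8.77% of all tested genes showed. The exceptions were Ccnb2, Bub3, Foxm1 and Anln, and without normal brain C2 the pattern held for 35 (9.36% of all tested genes). Between glioma and normal brain the median difference was 3.07, against 0.051 over all tested genes, and the members ran from -0.12 for Anln to 4.54 for Top2a. Every glioma read above every normal brain for 18 of the 38 (9.45% of all tested genes). Without glioma A4 this held for 32 (11% of all tested genes), and without both A4 and normal brain C2 for 33 (11.7%). The count called higher in glioma was 36 without both arrays.

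**Figure D2:**
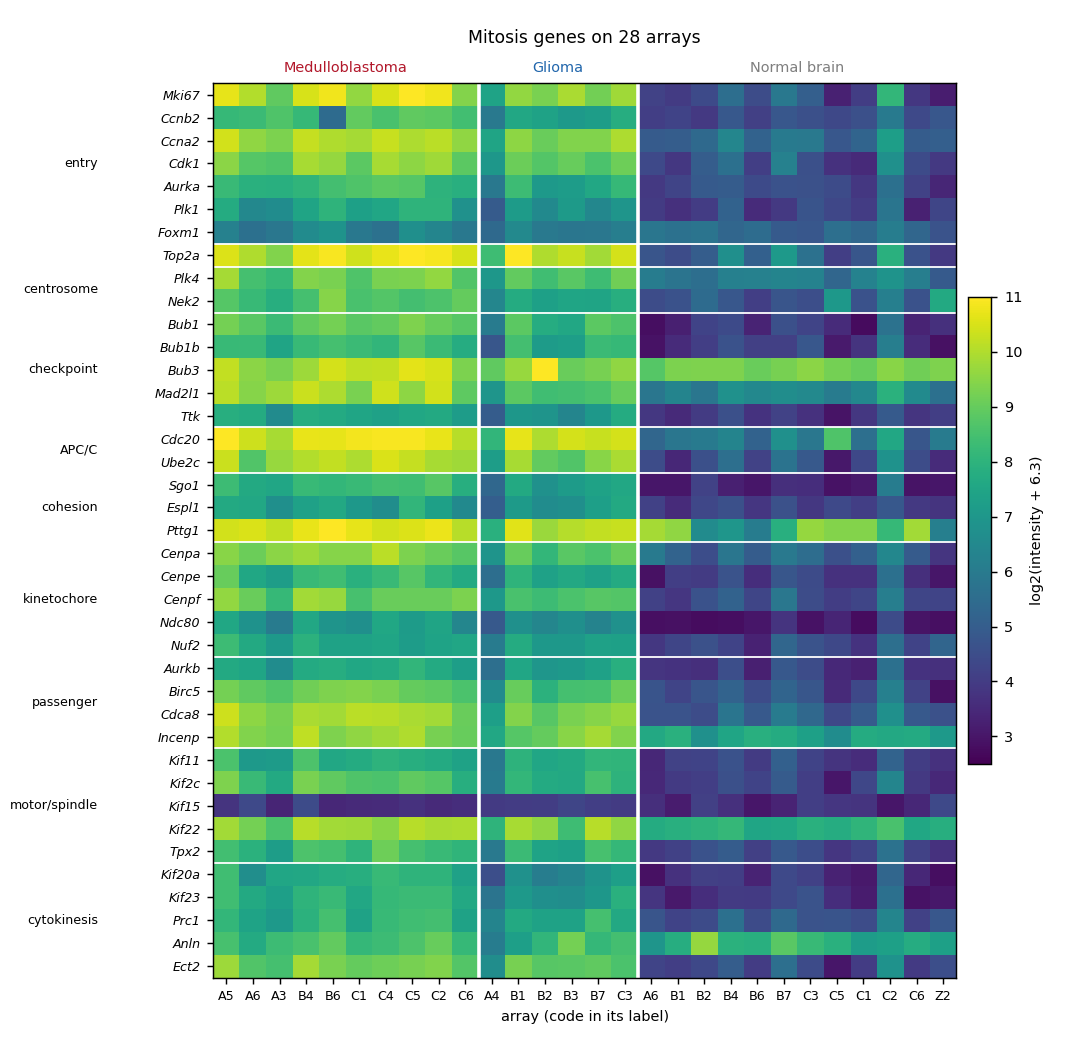
Each row is 1 of the 39 mitosis genes with a probe set, grouped by role, and each column 1 array, grouped by tissue; colour gives log2(intensity + 6.3). Most rows are bright in both tumour types and dark in normal brain. Glioma A4 is dimmer than the other gliomas, and normal brain C2 brighter than most normal brains. In the probe sets shown, Pttg1, Bub3, Anln and Kif22 are bright in normal brain as well.

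The tissues also differed in cell makeup, as far as markers show it. Of 12 mature neuron markers 11 were called lower in medulloblastoma and 12 in glioma than in normal brain (32% and 25.5% of all tested genes were called lower), with summed intensities of 1653 to 12634 in medulloblastoma, 607.7 to 5108 in glioma and 19631 to 26264 in normal brain. All 11 tested granule precursor markers were called higher in medulloblastoma, where their sum was 12326 to 17839, against 908.1 to 9086 in normal brain. All 8 oligodendrocyte precursor markers were called higher in glioma, where their sum was 10126 to 16724, against 713.7 to 2917 in normal brain. Of all tested genes, 32.2% and 28.4% were called higher in medulloblastoma and in glioma. No marker was listed at 0. The part of these cell types in the mitosis values was not tested, and in bulk tissue fewer cells of a type and less RNA per cell cannot be told apart.

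Among the genes of mitotic entry, all 7 tested members rose in medulloblastoma and 6 in glioma. Mki67 encodes Ki-67, which coats mitotic chromosomes and is used to count dividing cells. It read 479 to 2007 (median 1430.0) in the medulloblastomas, 168 to 968 (median 705) in the gliomas and 2.8 to 275 (median 13.3) in the normal brains. The top normal brain value was that of C2 and overlapped glioma A4 at 168, while every medulloblastoma was higher. Against normal brain Mki67 was 5.63 (SE 0.43, adjusted p = 3.91e-11) in medulloblastoma, a 49.5-fold difference of intensity + 6.3, and 4.44 (SE 0.50, adjusted p = 5.65e-08) in glioma. Cdk1, the kinase that starts mitosis, read 395 to 949 (median 740.4) in the medulloblastomas, 122 to 549 (median 464) in the gliomas and 5 to 104 (median 15.1) in the normal brains. Both tumour types lay wholly above normal brain, by 4.82 (SE 0.34, adjusted p = 7.68e-12) and 3.81 (SE 0.39, adjusted p = 1.29e-08). Ccna2, a cyclin of S and G2 phase, again showed no overlap of either tumour type with normal brain. In the same order of tissues it had 629 to 1353 (median 999), 168 to 977 (median 671) and 21.6 to 148 (median 30.8). Its differences were 4.54 (SE 0.27) and 3.63 (SE 0.31).

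Ccnb2, a B-type cyclin, read 37.7 to 491 (median 352) in medulloblastoma, 54.9 to 215 (median 153) in glioma and 8.9 to 57 (median 16.1) in normal brain. Its lowest medulloblastoma was B6, and the other 9 read at least 285. The differences from normal brain were 3.68 (SE 0.31) and 2.85 (SE 0.36). Aurka, the kinase of the spindle poles, ran from 226 to 460.2 (median 281), 53.9 to 317 (median 164) to 4.4 to 43.8 (median 15.2), with differences of 3.89 (SE 0.22) and 2.91 (SE 0.26). Plk1, which promotes mitotic entry and spindle assembly, read 83.1 to 257 (median 174), 24.7 to 136 (median 102) and 3.5 to 49.9 (median 9.7). In glioma A4 it was 24.7, below normal brains B4 and C2, and no other tumour overlapped. Its differences were 3.34 (SE 0.28) and 2.38 (SE 0.32). Foxm1, a transcription factor of late cell cycle genes, changed less in its brightest probe set, and its other probe sets are described further on. Top2a, which untangles sister chromatids, read 665 to 2031 (median 1537) in medulloblastoma, 319.7 to 2021 (median 1118) in glioma and 8.7 to 233 (median 23.4) in normal brain. Its groups did not overlap with normal brain, at 5.26 (SE 0.37, adjusted p = 8.51e-12) and 4.54 (SE 0.42, adjusted p = 3.95e-09).

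The 5 spindle checkpoint genes split into 4 with large differences and Bub3. Bub1, a kinetochore kinase, read 309 to 648 (median 493) in the medulloblastomas, 59.9 to 462 (median 302) in the gliomas and 0.4 to 46.1 (median 5.95) in the normal brains. Every tumour of both types exceeded every normal brain, by 5.32 (SE 0.31, adjusted p = 6.07e-13) and 4.17 (SE 0.35, adjusted p = 1.10e-09). Bub1b encodes BubR1, a part of the mitotic checkpoint complex, and had 168 to 434 (median 296), 21 to 347 (median 216) and 1.1 to 63.3 (median 8.9), or 4.36 (SE 0.34) and 3.36 (SE 0.39). Mad2l1 encodes Mad2, which binds and blocks Cdc20. It read 473 to 1374 (median 916), 116 to 514 (median 363) and 43.7 to 236 (median 82.4), and differed by 3.45 (SE 0.25) and 1.93 (SE 0.28). For both Bub1b and Mad2l1 glioma A4 fell below normal brain C2 (for Bub1b also below C3), and the other gliomas did not overlap with normal brain. Ttk encodes Mps1, the kinase that starts checkpoint signalling, and read 91.8 to 222 (median 189.5), 25.3 to 206 (median 118) and 1.5 to 23.8 (median 8.4). All tumours were above all normal brains, by 3.71 (SE 0.25) and 2.76 (SE 0.29). Bub3 was bright in every tissue and is described with the members that stood apart.

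Next come the genes that carry the cell into anaphase. Cdc20 activates the APC/C and read 950 to 2288 (median 1668) in medulloblastoma, 267 to 1650.5 (median 1329) in glioma and 20.9 to 398 (median 54.7) in normal brain. The highest normal brain was C5, above glioma A4 at 267, and the rest of the normal brains reached at most 186. Differences from normal brain were 4.61 (SE 0.36) and 3.92 (SE 0.41). Ube2c, the ubiquitin-conjugating enzyme of the APC/C, read 406 to 1454 (median 1002), 143 to 959 (median 604) and 2 to 108 (median 15.8), with no overlap of either tumour type with normal brain. It differed by 5.42 (SE 0.36, adjusted p = 3.94e-12) and 4.41 (SE 0.42, adjusted p = 4.57e-09). Espl1 encodes separase, the protease that cuts cohesin, and had 86.3 to 265 (median 156), 26.7 to 197 (median 117) and 5.5 to 22.4 (median 10.9). It differed by 3.16 (SE 0.25) and 2.56 (SE 0.29), also without overlap. Sgo1, shugoshin, shields centromeric cohesin and read 179.8 to 441 (median 299), 34.6 to 198 (median 151) and 1.3 to 61 (median 1.95). On 11 of the normal brains Sgo1 was 11.7 or less, and only C2 read higher than glioma A4. Its differences were 4.78 (SE 0.31) and 3.58 (SE 0.35). Pttg1, securin, is the inhibitor of separase and behaved differently, as given further on.

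All 5 kinetochore members rose in both tumour types. Ndc80 and Nuf2 encode partners in the complex that grips the microtubule end. Ndc80 read 59.2 to 188 (median 125) in medulloblastoma, 23.1 to 105 (median 88.8) in glioma and 0.6 to 15.5 (median 1.2) in normal brain, and differed by 4.01 (SE 0.24) and 3.22 (SE 0.28). Nuf2 read 132 to 313 (median 171), 59.3 to 207 (median 139.5) and 3.6 to 42.1 (median 13.5), and differed by 3.25 (SE 0.24) and 2.72 (SE 0.28). For both, every tumour read above every normal brain. Cenpa, the histone H3 variant of centromeres, had 439.5 to 1097 (median 696), 113 to 531 (median 415) and 7.9 to 80.3 (median 29.4), or 4.11 (SE 0.26) and 3.04 (SE 0.30). Cenpf, a large kinetochore protein of late G2, had 288 to 895 (median 529), 126 to 438 (median 373) and 8.2 to 64.2 (median 13.1), or 4.68 (SE 0.26) and 3.65 (SE 0.30). Neither overlapped with normal brain. Cenpe, a kinesin that carries chromosomes to the spindle equator, had 144 to 519 (median 284), 40.8 to 256 (median 174) and 1.1 to 43.3 (median 8.05). Its only overlap was glioma A4 (40.8) against normal brain C2 (43.3), and it differed by 4.23 (SE 0.27) and 3.20 (SE 0.31).

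The chromosomal passenger complex joins Aurora B with 3 partners, and all 4 genes rose in both tumour types. Aurkb, the kinase, read 92 to 266 (median 198) in medulloblastoma, 42.3 to 224 (median 144) in glioma and 3.2 to 44 (median 7.05) in normal brain, or 3.64 (SE 0.27) and 3.09 (SE 0.30). Birc5, survivin, had 383 to 685 (median 529), 90.9 to 534 (median 359) and 1 to 66.5 (median 17.6), or 4.51 (SE 0.27) and 3.59 (SE 0.31). Cdca8, borealin, had 526 to 1314 (median 935), 152 to 817 (median 647) and 14 to 102 (median 22.7), or 4.76 (SE 0.28) and 3.87 (SE 0.32). Birc5 and Cdca8 did not overlap with normal brain, and Aurkb did so through A4 and C2 alone. Incenp, the scaffold of the complex, showed a smaller difference. It read 511 to 1151 (median 713), 189 to 926 (median 579) and 92.2 to 229 (median 193), and differed by 2.19 (SE 0.22) and 1.50 (SE 0.25). Glioma A4 (189) lay inside the normal brain range of Incenp.

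Among the centrosome genes, Plk4, the kinase that licenses centriole duplication, read 287 to 927 (median 616) in medulloblastoma, 123 to 566 (median 392) in glioma and 23.8 to 109 (median 65.6) in normal brain. No tumour overlapped with normal brain, and it differed by 3.11 (SE 0.23) and 2.41 (SE 0.26). Nek2, which parts the duplicated centrosomes, is described with the members that stood apart. Of the spindle motors, Kif11 (Eg5), which pushes the poles apart, read 128 to 389 (median 205), 54 to 269 (median 222) and 4.7 to 30.2 (median 11.1). Kif11 differed by 3.76 (SE 0.24) and 3.31 (SE 0.27), with no overlap. Kif2c (MCAK), which shortens microtubules at the kinetochore, had 196 to 655 (median 411), 57 to 362 (median 226) and 1.8 to 75.5 (median 10.6), or 4.57 (SE 0.31) and 3.39 (SE 0.35), and glioma A4 fell below normal brain C2. Tpx2, which activates Aurora A on the spindle, had 144 to 553 (median 319.6), 55.5 to 364 (median 224) and 6.9 to 46.4 (median 12.2), or 4.01 (SE 0.24) and 3.19 (SE 0.28), with no overlap with normal brain. In its brightest probe set Kif22, a kinesin on chromosome arms, was bright in every tissue. There it read 378 to 1079.6 (median 899), 254 to 1087 (median 761) and 173 to 372 (median 224). Its medulloblastomas cleared normal brain, its gliomas A4 and B3 did not, and it differed by 1.95 (SE 0.20) and 1.45 (SE 0.23). The other probe sets of Kif22 were dim in normal brain, at 6.8 to 24.9 and 1.2 to 15.3. They read 91.7 to 310 and 31.8 to 125.9 in medulloblastoma, and 15.3 to 150.6 and 16.3 to 67.8 in glioma.

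Genes of cytokinesis followed the same order except Anln. Kif20a and Kif23 are kinesins of the central spindle, and Kif23 is a subunit of centralspindlin. Kif20a read 98.6 to 332 (median 216) in medulloblastoma, 16.8 to 151 (median 90) in glioma and 0.7 to 32.8 (median 5.7) in normal brain, or 4.12 (SE 0.28) and 2.59 (SE 0.31). Kif23 read 150.2 to 326 (median 271), 48.3 to 233 (median 112) and 1.3 to 43.2 (median 6.85), or 4.15 (SE 0.28) and 3.05 (SE 0.32). The medulloblastomas did not overlap with normal brain in either gene. Prc1, which bundles the central spindle, had 131 to 353 (median 257), 75.2 to 358 (median 178) and 11.4 to 75.8 (median 19.6), or 3.20 (SE 0.26) and 2.67 (SE 0.30). Ect2, the exchange factor that activates RhoA at the cleavage site, had 352 to 911 (median 579.9), 95.3 to 599.7 (median 444) and 1.8 to 107 (median 13.4), or 4.86 (SE 0.34) and 3.96 (SE 0.38). In Prc1, Ect2 and Kif20a glioma A4 fell below normal brain C2, and the other gliomas lay above every normal brain.

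**Figure D3:**
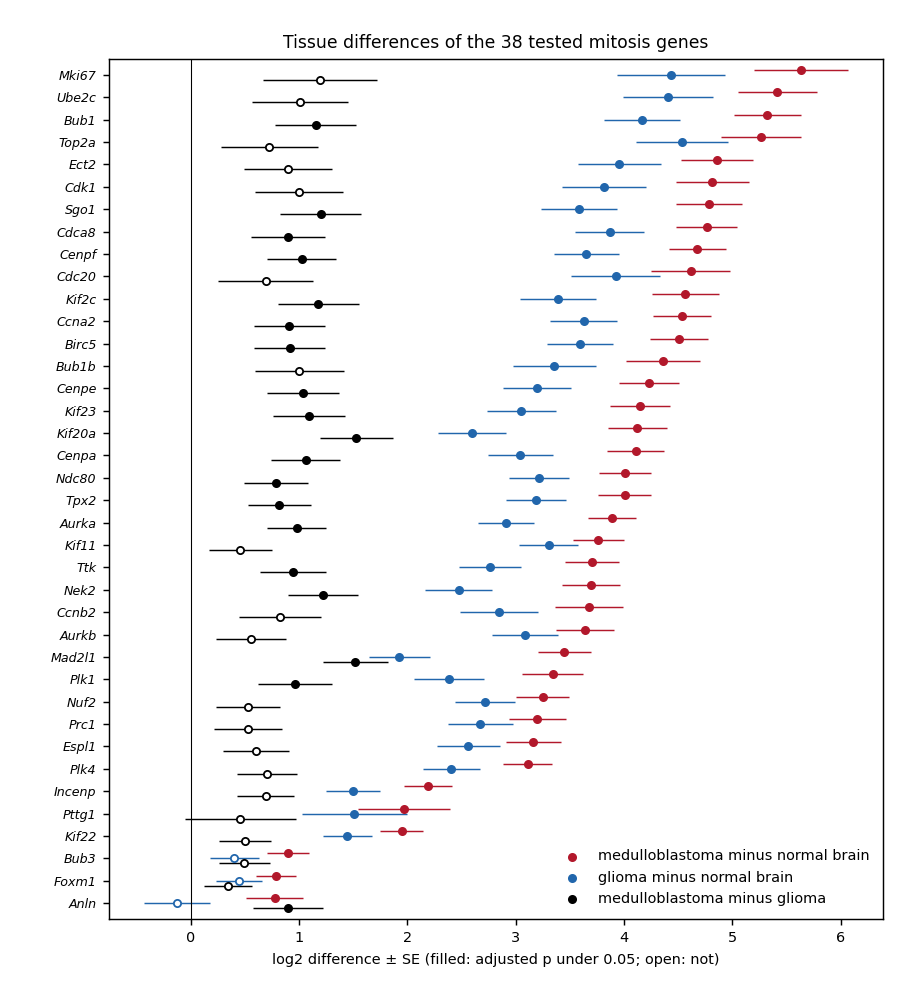
Log2 difference of each of the 38 tested members (horizontal axis, with bars of 1 SE) in the 3 tissue comparisons, ordered by medulloblastoma minus normal brain; filled points passed the adjusted p of 0.05 and open ones did not. Medulloblastoma lies to the right of glioma for every gene, by 0.34 to 1.53, and Bub3, Foxm1 and Anln lie nearest to 0.

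Medulloblastoma was then set against glioma. All 38 members had a positive difference, with a median of 0.905 (0.0078 over all tested genes), and 19 of 38 were called higher in medulloblastoma, against 13.6% of all tested genes. None was called lower (14.8% of all tested genes were). The largest were Kif20a at 1.53 (SE 0.33, adjusted p = 0.00104) and Mad2l1 at 1.52 (SE 0.30, adjusted p = 0.000325), and Nek2 followed the pair at 1.22 (SE 0.32, adjusted p = 0.00577). Mad2l1 read at least 473 in medulloblastoma and at most 514 in glioma, so C6 alone overlapped. Kif20a overlapped in medulloblastoma A6 (98.6), which was lower than gliomas B1, B7 and C3. For Nek2, and for no other member, every medulloblastoma was above every glioma (224 against 219), a pattern of 2.64% of all tested genes. The other called members were Bub1, Sgo1, Kif2c, Kif23, Cenpa, Cenpe, Cenpf, Aurka, Plk1, Ttk, Birc5, Ccna2, Anln, Cdca8, Tpx2 and Ndc80, at 0.79 to 1.20. Among those that did not pass were Top2a at 0.73 (SE 0.45, adjusted p = 0.243), Cdc20 at 0.69 (SE 0.44, adjusted p = 0.253), Kif11 at 0.46 (SE 0.29, adjusted p = 0.252) and Prc1 at 0.53 (SE 0.32, adjusted p = 0.227).

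The count of 19 depended on single arrays. Without glioma A4 it was 3 (Mad2l1, Nek2 and Kif20a) and the median difference 0.51. Without medulloblastoma A5 it was 12, and without both glioma A4 and normal brain C2 it was 8. It was 11 with a pseudocount of 1, 27 with one of 32 and 11 without the genotype term. The titles carry a prefix, YZ or YZ2, whose meaning is not stated. Among YZ arrays the count was 13, and among YZ2 arrays, with 5 medulloblastomas and 2 gliomas, it was 0. With A4 left out, every medulloblastoma was above every glioma for Nek2 alone among the tested members, a pattern of 2.74% of all tested genes.

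Pttg1 set the normal brains apart from each other, a pattern chosen after its values were seen. It read 1090 to 2013 (median 1479.7) in medulloblastoma and 232 to 1579.7 (median 1126) in glioma. Among the normal brains it was 61.4 in B6, 66.2 in Z2, 91.5 in B2, 119.6 in B4, 224 in B7 and 285 in C2, and 684 to 912 in A6, B1, C1, C3, C5 and C6. The high normal brains overlapped with the gliomas and not with the medulloblastomas. C2, the highest normal brain for most members, was among the lower ones for Pttg1, and C5 and C6, with member medians of 12 and 11.95, were among the higher. A second probe set showed the same division, at 9.5 to 58.8 in the 6 lower arrays and 143 to 267 in the 6 higher ones. Pttg1 still passed against normal brain, at 1.97 (SE 0.42, adjusted p = 0.00022) in medulloblastoma and 1.51 (SE 0.48, adjusted p = 0.0101) in glioma. For Pttg1, glioma minus normal brain, the difference was 1.38 among YZ arrays and 2.27 among YZ2 arrays, and neither passed (adjusted p = 0.107 and 0.0568).

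Nek2 was highest in normal brains Z2 and C5, which carried granule neuron transcripts. It read 224 to 694 (median 380.1) in medulloblastoma, 78.6 to 219 (median 173) in glioma and 10.6 to 196 (median 19.7) in normal brain, and differed by 3.69 (SE 0.27) and 2.47 (SE 0.31). Normal brain Z2 read 196, C5 124, C2 65.3 and B2 38, and the other 8 read 10.6 to 21.7. The summed intensity of 6 mature granule neuron markers was 15255 in Z2, 12572 in C5, 5084 in B2 and 361.1 to 822.5 in the other 9. Among medulloblastomas the highest Nek2 values, 694 in B6 and 505 in C6, were also those of the arrays with the highest sums, 4839 and 3880, against 311.2 to 978.9 in the others. Among gliomas B7 and B2 had the highest sums (3182 and 2260) and Nek2 of 171 and 156, inside the range of the others. A second Nek2 probe set gave 96.7 in Z2, 51.6 in C5 and no more than 28 elsewhere in normal brain. A dimmer one was called lower in both tumour types (-1.61 and -1.65), so the probe sets of Nek2 disagree. The part of granule neurons in these values was not tested.

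Anln encodes anillin, the actin-binding scaffold of the cleavage furrow. It read 199 to 510.2 (median 342) in medulloblastoma, 60.2 to 595 (median 273) in glioma and 117 to 806 (median 221) in normal brain, with wide overlap. The difference was 0.77 (SE 0.26, adjusted p = 0.0125) for medulloblastoma and -0.12 (SE 0.30, adjusted p = 0.75) for glioma, which did not pass and turned positive in some settings, such as 0.11 without glioma A4. For Anln, medulloblastoma minus normal brain, the call was lost without the genotype term (0.54, adjusted p = 0.108), among YZ arrays (0.43, adjusted p = 0.517) and with the mean of both probe sets (0.062, adjusted p = 0.828). The brightest normal brain was B2 at 806, and the brightest glioma was B3 at 595. These arrays also had the highest sums of 9 oligodendrocyte markers in their tissues, 19210 in normal brain B2 (5507 to 12687 in the others) and 17688 in glioma B3 (4013 to 6846). The part of oligodendrocytes in the Anln values was not tested. The second probe set of Anln was called lower in medulloblastoma (-0.65, adjusted p = 0.0165 over probe sets) and read 137 in B2 and 125 in B3, again the highest of their tissues. The brightest was called higher in medulloblastoma than in glioma, but this second one read 17.6 to 41.1 and 16.5 to 124.6 there. Cdc20 read 398 in normal brain C5 and 186 in the next, C2. Another Cdc20 probe set gave 156 and 62.4 in these arrays, while the median over all tested members was 12 in C5.

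Bub3, which brings the checkpoint proteins to the kinetochore, was bright everywhere. It read 626 to 1606 (median 1174) in medulloblastoma, 483 to 2082 (median 686) in glioma and 423 to 727 (median 616) in normal brain, and the tissues overlapped. In its brightest probe set it was higher in medulloblastoma by 0.90 (SE 0.19, adjusted p = 0.000238). In glioma the difference of 0.40 (SE 0.22, adjusted p = 0.129) did not pass. Without glioma B2 the glioma difference was 0.15. Glioma B2 alone read 2082, and the other gliomas at most 811. A second Bub3 probe set read 78.5 to 160.6 in medulloblastoma, 95.3 to 272.8 in glioma and 124.8 to 183.1 in normal brain. Both ends of that range were lower in medulloblastoma than in normal brain, and the highest glioma was again B2. The other probe sets of Bub3 were dim, each with its highest value in medulloblastoma (46.9, 25.4 and 23.4). In RefSeq order along the chromosome, 8 of the 10 tested genes on one side of Bub3, from Ate1 to Acadsb, were also highest in glioma B2, and 1 of the 10 on the other side, while 16.6% of all tested genes were highest in that array. Nsmce4a read 1175 in B2 and at most 374.1 in the other gliomas, Ikzf5 794.8 against 276.3 and Ate1 480.9 against 213.8. The neighbours were examined after the Bub3 value was seen. No such run was seen beside Ccnb2 in medulloblastoma B6, where Ccnb2 was 37.7: its neighbours Myo1e and Rnf111 differed from the median of the other medulloblastomas by -0.47 and 0.079.

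**Figure D4:**
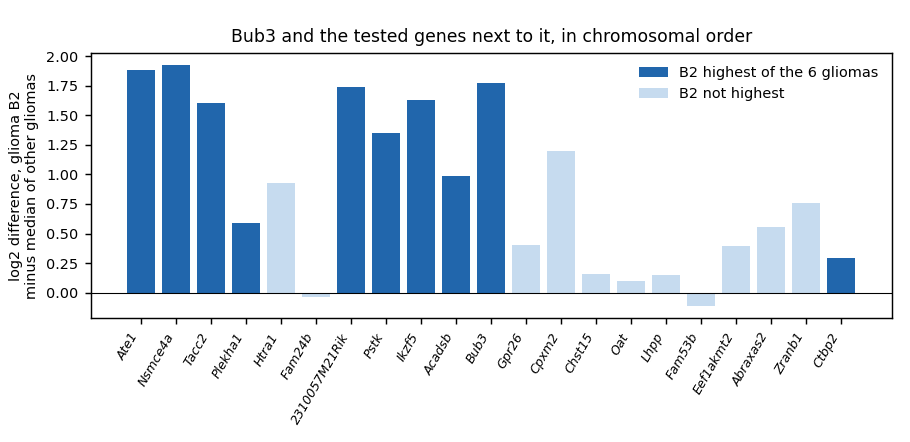
Difference of log2(intensity + 6.3) between glioma B2 and the median of the other 5 gliomas (vertical axis) for Bub3 and the 10 tested genes on each side, in chromosomal order; dark bars mark genes highest in B2. The dark bars run from Ate1 to Bub3 with 2 exceptions and stop at Gpr26, and Ctbp2 at the far end is highest in B2 by a small margin.

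Foxm1 depended on the probe set. Its brightest read 43.9 to 110.3 (median 62) in medulloblastoma, 36 to 83.7 (median 53.3) in glioma and 19.4 to 62.9 (median 36.4) in normal brain, with overlap of all tissues. The differences were 0.79 (SE 0.18, adjusted p = 0.00052) for medulloblastoma and 0.45 (SE 0.21, adjusted p = 0.0749) for glioma, the latter not passing. For Foxm1, glioma minus normal brain, the test was passed without normal brain C2 (0.50, adjusted p = 0.0395), without normal brain A6 (0.54, adjusted p = 0.0315) and without the genotype term (0.54, adjusted p = 0.034). A second probe set read 18.7 to 158 in medulloblastoma, 2.3 to 32.8 in glioma and 0.5 to 2.1 in normal brain, so that no tumour overlapped with normal brain. It differed by 2.88 (SE 0.25, adjusted p = 4.56e-10 over probe sets) and 1.45 (SE 0.29, adjusted p = 0.000222). Another gave 2.36 and 1.07, and a dim one 0.029 and -0.17, which did not pass. In all, 26 members had 51 further probe sets. Against normal brain, 41 of these were called in the direction of the brightest for medulloblastoma and 38 for glioma, 2 (of Anln and Nek2) and 1 (of Nek2) in the opposite direction, and 8 and 12 did not pass. Between the tumour types 15 of 51 were called in the same direction, 0 in the opposite and 36 did not pass.

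**Figure D5:**
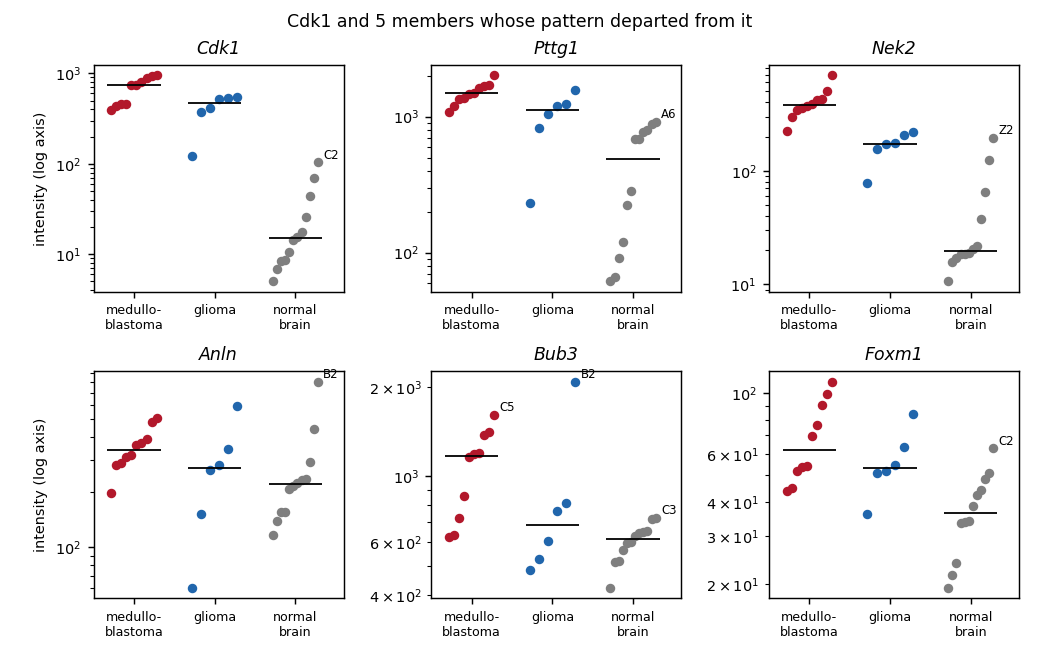
Intensity (log axis) of Cdk1 and of 5 members with a pattern of their own on every array, sorted within each tissue; black lines mark medians, and the highest normal brain (and, for Bub3, the highest of each tumour type) is labelled. Cdk1 is separated between tumours and normal brain, the normal brains divide for Pttg1, and Bub3 is highest in glioma B2.

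The Rictor genotypes were compared within each tissue. Median member intensity was 287.5, 303.7 and 558.1 on the medulloblastomas with p53 loss alone, 441.2 and 537.6 on the heterozygous ones, and 359.2 to 479.9 on the Rictor-null ones, which lay inside the spread of the others. In Rictor-null against p53-only medulloblastoma 0 of 38 members were called (0.00718% of all tested genes), 2 had an unadjusted p under 0.05 (4.34% of all tested genes), and the median difference was 0.24 (-0.00052 without A3). The smallest p-values were those of Top2a at 0.72 (SE 0.26, adjusted p = 0.981), Kif22 at 0.63 (SE 0.27, adjusted p = 0.981) and Sgo1 at 0.50 (SE 0.27, adjusted p = 0.981). Top2a read 1478, 1006 and 665.4 in A5, A6 and A3 and 1326 to 2031 in the Rictor-null tumours, with overlap. Against heterozygous medulloblastoma 0 of 38 were called (0.00718%), 1 had an unadjusted p under 0.05 (1.42%), and the median difference was -0.21. Ccnb2 had the smallest, at 1.92 (SE 0.54, adjusted p = 1), and read 286 in B4 and 37.7 in B6 against 336 to 491 in the Rictor-null tumours. Without B4, which leaves B6 as the lone heterozygous tumour, assumed to vary like the rest, Ccnb2 was called. Cenpf at -0.75 (SE 0.35, adjusted p = 1) and Foxm1 at -0.62 (SE 0.35, adjusted p = 1) followed.

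In Rictor-null against heterozygous normal brain 0 of 38 members were called (0% of all tested genes), 1 had an unadjusted p under 0.05 (3.15%), and the median difference was 0.024. It was -0.29 without normal brain C2. Pttg1 came first at 1.88 (SE 0.58, adjusted p = 1), with 61.4, 91.5, 119.6, 224 and 769 on the heterozygous arrays and 285, 684, 685, 795 and 889 on the Rictor-null ones. The groups overlapped through heterozygous B1 and Rictor-null C2. Anln at -0.73 (SE 0.36, adjusted p = 1) and Nek2 at 0.65 (SE 0.48, adjusted p = 1) came next. The 1 Rictor-null glioma, assumed to vary like the other groups, was compared with 4 heterozygous ones. There 0 of 38 members were called (0.0215% of all tested genes), 0 had an unadjusted p under 0.05 (4.57%), and the median difference was 0.28. Ttk at 0.90 (SE 0.52, adjusted p = 1), Kif23 at 1.03 (SE 0.68, adjusted p = 1) and Espl1 at 0.71 (SE 0.51, adjusted p = 1) had the smallest p-values. Ttk read 206 in C3 and at most 125 in the heterozygous gliomas.

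Whether the Rictor-null minus heterozygous difference itself differed between medulloblastoma and normal brain was tested directly. No member passed limma's test (0 of 38, 0% of all tested genes), 2 had an unadjusted p under 0.05 (1.9%), and the median was -0.24 (0.12 without normal brain C2). They were Pttg1 at -2.23 (SE 0.72, adjusted p = 1) and Ccnb2 at 1.51 (SE 0.61, adjusted p = 1), and Nek2 at -0.95 (SE 0.62, adjusted p = 1) was next. A p that misses the threshold does not show that the genotypes are alike.

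Other genes of the same machinery were read from lists that exclude the members. Of all tested genes, 32.2% were called higher in medulloblastoma and 28.4% in glioma than in normal brain. Of 30 tested kinetochore genes 28 were called higher in each tumour type than in normal brain and 1 lower, with medians of 2.15 in medulloblastoma and 1.60 in glioma. Spc25, a partner of Ndc80 and Nuf2, differed by 4.59 and 3.87, and Ska1 by 3.84 and 2.37. Of 19 spindle genes 18 were called higher in each (Nusap1 4.85 and 3.73, Aspm 4.47 and 3.98). Of 8 condensin genes 7 were higher in each, with Smc2 at 3.78 and 2.42 and Smc4 at 3.74 and 2.81. Of 10 genes of mitotic entry 9 were higher in each, among them the Cdk1-binding Cks1b at 4.41 and 3.04 and Cks2 at 4.16 and 3.45. Of 7 cytokinesis genes 6 were higher and 1 lower in each, with Cep55, which acts in abscission, at 4.61 and 3.44. Kif4 was counted in both the spindle and the cytokinesis list. All 8 centriole genes were higher in medulloblastoma and 6 in glioma, among them Stil at 2.85 and 2.26.

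The counts called higher that follow also stand beside 32.2% and 28.4% of all tested genes in medulloblastoma and glioma. Of 18 tested APC/C subunits and regulators 13 were called higher in medulloblastoma and 11 in glioma, with 0 lower and medians of 0.55 and 0.42. Its regulators Fbxo5 (Emi1) and Trip13 differed by 3.76 and 2.87, and by 3.53 and 2.86. Of 13 cohesin genes 11 were higher and 1 lower in each tumour type, with medians of 1.05 and 0.76, and Esco2, a cohesin acetyltransferase, reached 4.28 and 3.33. Of 17 MuvB and E2F regulators 14 were higher in medulloblastoma and 11 in glioma, where 1 was lower, with E2f8 at 3.36 and 3.15 and Rbl1 at 2.86 and 2.44. A list of transport kinesins of neurons and other cells, with partner subunits such as Klc1 and Kifap3, went the other way. Of 15 tested, 12 were called lower and 1 higher in medulloblastoma, and 11 lower and 1 higher in glioma. Of all tested genes, 32% and 25.5% were called lower. Kif5a, a motor of neurons, differed by -3.25 and -3.13. The neuron markers given above fell on the same arrays, and their part in the transport kinesins was not tested.

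The promoter motifs of the opening were also set beside expression. The 23 tested members with TTTGAA had a median medulloblastoma minus normal brain difference of 4.11 (0.77 to 5.63), and the 9 without it 3.69 (1.97 to 5.32). The 24 with CCAAT had 4.19 (0.90 to 5.63) and the 8 without it 3.35 (0.77 to 4.57). The ranges overlapped almost wholly, and no test was made. Mad2l1 and Pttg1, printed above with neither motif in the last 120 bases, differed by 3.45 and 1.97. Cdk1 and Top2a, with several of each motif, differed by 4.82 and 5.26. Other members went the other way: Birc5, with neither motif, differed by 4.51, and Bub3 and Kif22, with both, by 0.90 and 1.95 in their brightest probe sets.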

How the data were processed

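RNA of 10 medulloblastomas, 6 gliomas and 12 normal brains was measured on Affymetrix Mouse 430 2.0 arrays. The authors deposited linear intensity values for 45101 probe sets, made with MAS5 and GCOS per the submitters' processing notes. No version of either is given in the sources used here. The mean of each array, 2% trimmed off each end, is 100 in these values. Values were log2-transformed after adding 6.3, the 25th percentile of the table. The 34945 probe sets with 1 gene symbol in the platform annotation covered 18193 genes, each represented by its brightest probe set. A gene was tested where its mean passed 3.886 on that scale, the 30th percentile of the probe sets, which left 13927. Precision is limited by the number of arrays.

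For tissues, limma's lmFit and eBayes (with trend) were run over 28 arrays, tissue and genotype being terms, and the wild-type brain had a level of its own. Rictor genotypes were compared within the 10 medulloblastomas and the 12 normal brains; the glioma comparison and the interaction used 10 group means over all arrays. Tests ran in limma 3.58.1 under R 4.3.3, and tables and plots in Python 3.11.15 (pandas 2.3.3, numpy 2.4.6, matplotlib 3.10.9). The scripts were tested on simulated data. The design text of the series mentions more medulloblastomas and normal brains than the 28 arrays hold, and these are not analysed here.

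The members, lists and tests were chosen with earlier results of these data known. All members with a probe set are named in the tissue comparisons. In genotype comparisons the called members are named or, with none called, the 3 with the smallest p. From the other lists come called genes with the largest medulloblastoma minus normal brain difference, at most 4 a list. Gene order came from RefSeq (GRCm38.p6). Alternatives were the pseudocount, the filter, quantile normalization, the mean of all probe sets, the genotype term, the title prefix as a covariate or as a subset, single genotypes, the shared prefix and code as a block, and leaving out each array. Tumours and normal brains that share both prefix and code in their titles gave residual correlations of -0.10 to 0.25 in 8 pairs.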

Additional observations from a re-analysis of the deposited data

Results flagged for a closer look

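Single arrays that lay far from the rest of their group, by Dixon's criterion on the log2 scale, were found 32 times in 228 member and group combinations (14.0%). Chance alone flags about 1 in 20 such groups, and the members are not independent of each other.

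Glioma A4 was far below the other 5 gliomas for 16 members: Mki67 at 168, Ccna2 at 168.4, Cdk1 at 122.2, Bub1b at 21, Mad2l1 at 116.4, Plk1 at 24.7, Plk4 at 122.7, Nek2 at 78.6, Cdc20 at 266.9, Cenpe at 40.8, Cenpf at 125.8, Kif11 at 54, Kif2c at 57, Ndc80 at 23.1, Pttg1 at 231.5 and Ect2 at 95.3. Bub3 in glioma B2 stood above the other gliomas at 2082, and Foxm1 in glioma B1 above the other heterozygous gliomas at 83.7.

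Normal brain C2 stood above the other Rictor-null normal brains for Ccnb2 at 57, Mad2l1 at 236.2, Cenpf at 64.2, Sgo1 at 61 and Prc1 at 75.8, and below them for Pttg1 at 285.4. Among heterozygous normal brains, Plk1 stood out in B4 at 29.8 and Ndc80 in B7 at 7.5, a dim value.

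In medulloblastoma, A3 was the lowest for Bub1 at 308.9 and Ttk at 91.8, A6 for Ube2c at 405.8 and B6 for Ccnb2 at 37.7. Among Rictor-null medulloblastomas, C6 was low for Cdc20 at 1093 and Cdca8 at 525.8. What set these arrays apart was not tested.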

How the results depend on the processing

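The counts of members called higher against normal brain stayed at 37 or 38 for medulloblastoma and 34 to 36 for glioma under every alternative run. These were out of 38 tested members, or 39 without the filter, where Kif15 entered. Leaving out 1 array at a time gave 38 to 38 and 35 to 36. The median difference in medulloblastoma was 4.41 with a pseudocount of 1, 2.88 with 32 and 3.21 with the mean of all probe sets of a gene (3.63, 2.05 and 2.45 in glioma). The count in medulloblastoma against glioma was less stable. It ran from 3 (without glioma A4) to 25 (without normal brain C2) as single arrays were left out, and was 12 without medulloblastoma A5. It was 11 with a pseudocount of 1, 27 with one of 32, 11 without the genotype term, 0 within YZ2 arrays, and 8 without glioma A4 and normal brain C2, a setting chosen after seeing the data. Fewer arrays enter wherever arrays were left out or only YZ2 arrays were used. What moved the count was not tested. The genotype comparisons called 0 members throughout, except 1 for Rictor-null against heterozygous medulloblastoma without B4.

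Some differences near 0 changed sign. Anln in glioma against normal brain ran from -0.36 to 0.11 as single arrays were left out, and was 0.62 within YZ2 arrays, 0.075 without normal brains B2, C5 and Z2 and 0.075 without A4 and C2. Bub3 in glioma against normal brain was -0.085 within YZ2 arrays. In medulloblastoma against glioma, Pttg1 ran from -0.20 to 0.63 as single arrays were left out, and was -0.20 within YZ2 arrays and -0.24 without A4 and C2, and Incenp was -0.078 within YZ2 arrays. The cause was not tested. No rescaling moved the median of all tested genes by more than 0.1. Taking the shared prefix and code of tumour and normal brain as a replicate block (correlation 0.201) gave 38, 36 and 17 members called higher in the 3 tissue comparisons. Residual correlations passed 0.1 in 4 of the 8 pairs, and the labels do not say whether a shared code marks 1 animal. Intensities of a few units, as in most normal brains, are near the dimmest signals of the arrays, so folds of such genes are imprecise.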
